A study of Mus musculus with 4 samples.

Results

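Cluster 5 of the midbrain astrocytes, the cluster marked by the homeobox gene Nkx6-2, comprised 774 of the 4156 midbrain cells that the authors labelled AC (astrocyte), and of 21644 cells in the whole series. Its members were taken from the authors' cell table as the AC cells with cluster number 5, and 261 of them came from the Tg library and 513 from the WT library. The Tg mice carried human alpha-synuclein with the A53T change (strain label Hua-Syn(A53T), genotype transgenic), the change behind a familial form of Parkinson disease. The WT mice were wildtype littermates with the strain label C57BL/6. Both groups were 6 to 9 months old. Each group was 3 mice that the cell tables do not tell apart, so it was treated as 1 library, and the midbrain samples carry a mouse number of 0 in the labels, which was not resolved. The promoter of the transgene is not given in the sources used here. Cells were dissociated with a neural tissue kit by a protocol aimed at glia and vessels and captured with 10x Genomics 3′ v3 chemistry, which counts each captured RNA molecule once as a unique molecular identifier (UMI). With 1 library per genotype there is no replicate check and no p-value, and every interval below is a 95% interval (exact, Clopper-Pearson) that covers counting error only.

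Nkx6-2 encodes a homeodomain transcription factor that patterns the ventral neural tube and is also used by maturing oligodendrocytes. The ventral neural tube is patterned by Sonic hedgehog, a secreted ligand whose receptor Ptch1 restrains Smo; when the ligand binds, Gli transcription factors switch on targets that include Gli1, Ptch1 and Hhip. In the adult brain neurons supply the ligand and astrocytes in some regions respond to it, and astrocytes keep part of the positional transcription factor code of the progenitors they came from.

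The cluster had 2513897 UMIs in Tg and 3967583 in WT, with medians of 9231 and 7327 UMIs and 3335 and 2859 genes per cell. Median mitochondrial shares were 5.83% in Tg and 5.62% in WT. The midbrain libraries held 3995 Tg and 7635 WT cells, and they shared 4 cell barcodes, none of them between cells of the cluster. Among the other AC clusters (1, 3, 4, 10 and 22), clusters 4 and 22 were shallow, with medians of 1312 to 1423 UMIs per cell. Cluster 5 made up 17.3% of Tg astrocytes (15.4% to 19.3%) and 19.4% of WT astrocytes (17.9% to 21.0%). Since genes that mark the cluster differed between genotypes (given below), the shares are not compared.

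The astrocyte label was checked against 19 astrocyte genes. None was at 0, and together they reached 50588 CPM (UMIs of a gene per 1000000 UMIs of the group) in Tg and 52057 CPM in WT, led by Apoe. Summed microglial markers reached 259 and 286 CPM in Tg and WT, mural markers 216 and 234 CPM, and neuronal markers 274 and 285 CPM. Oligodendrocyte markers summed to 397 CPM in Tg and 367 CPM in WT, with Cnp, a myelin-associated enzyme gene, accounting for 226 and 218 CPM, while Mag, Cldn11 and Cldn14 of the 10 markers were at 0 in Tg and Cldn14 in WT. The sums for endothelial markers were 638 and 738 CPM, for ependymal markers 153 and 197 CPM, for fibroblast markers 54.1 and 53.2 CPM and for oligodendrocyte progenitor markers 278 and 229 CPM. Choroid plexus markers were the largest sum of another type, at 1921 CPM in Tg and 4128 CPM in WT, most of it the secreted carrier gene Ttr (1751 and 3828 CPM). The erythroid genes summed to 233 CPM in Tg and 41.1 CPM in WT. Among the remaining markers, Kcnj8 and Higd1b (mural), Slc17a7 (neuronal), Pifo (ependymal) and Slc6a13 and Lum (fibroblast) were at 0 in Tg, and Th and Tubb3 (neuronal) and Lum in WT.

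For the genes on which the description turns, 250 bases upstream of the annotated start were read from RefSeq (GRCm38.p6). Nkx6-2 is shown because it names the cluster, at chr7:139582798-139583047 on the minus strand. Hes5 (chr4:154960673-154960922, plus strand) and Hey2 (chr10:30842784-30843033, minus strand) are shown because both are textbook targets of Notch signalling and both were higher in the cluster than in the pooled other AC cells. Capitals mark GTGGGAA or its reverse complement, the motif bound by the Notch effector RBPJ.
Nkx6-2: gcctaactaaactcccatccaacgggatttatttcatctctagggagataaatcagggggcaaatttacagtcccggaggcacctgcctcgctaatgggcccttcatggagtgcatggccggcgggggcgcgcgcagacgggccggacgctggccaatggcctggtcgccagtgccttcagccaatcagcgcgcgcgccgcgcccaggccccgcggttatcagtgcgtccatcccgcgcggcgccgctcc
Hes5: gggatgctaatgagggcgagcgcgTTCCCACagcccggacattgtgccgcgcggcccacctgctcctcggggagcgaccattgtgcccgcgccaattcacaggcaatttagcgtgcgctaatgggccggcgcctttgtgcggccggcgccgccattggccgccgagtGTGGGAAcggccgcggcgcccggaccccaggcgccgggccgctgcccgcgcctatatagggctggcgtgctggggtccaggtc
Hey2: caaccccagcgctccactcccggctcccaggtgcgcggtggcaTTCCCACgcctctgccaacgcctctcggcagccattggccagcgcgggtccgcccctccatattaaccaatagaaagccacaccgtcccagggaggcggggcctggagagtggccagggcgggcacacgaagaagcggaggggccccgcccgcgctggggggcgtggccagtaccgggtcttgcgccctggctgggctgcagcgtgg
On either strand, GTGGGAA was present in 5.42% of 32851 such windows and the Gli motif GGGTGGTC in 0.703%. Hes5 and Hey2 held the first motif and not the second. The windows of the receptor gene Notch3 and of Nrarp, which were also higher in the cluster, did not hold the first motif. The Nkx6-2 window held neither set of letters, nor did those of Ptch1 and Hhip. Of 27 identity genes looked up (defined below), 20 had a window, of which 1 (Tshz2) held GTGGGAA and 1 (Nrarp) held GGGTGGTC. A match is a run of letters and not a measured site.

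The markers lie on 3 chromosomes (GRCm38, GENCODE annotation): Nkx6-2 at chr7:139579376-139582797, Rhcg at chr7:79593363-79617657, Fbln5 at chr12:101746565-101819055 and Hhip at chr8:79965851-80058006, all on the minus strand. The marker genes were higher in cluster 5 than in the pooled other AC cells of both libraries. Nkx6-2 stood at 597 CPM in the cluster against 76.9 CPM in the other AC cells of the Tg library, and at 730 against 123 CPM in the WT library. The log2 ratios were 2.96 (2.83 to 3.09) in Tg and 2.57 (2.48 to 2.66) in WT. Fbln5, which encodes fibulin-5, a glycoprotein of elastic fibre assembly, stood at 66.4 against 13.0 CPM in Tg and 66.3 against 12.4 CPM in WT. Rhcg, an ammonium transporter of the Rh family, stood at 39.4 against 7.99 CPM in Tg and 45.9 against 9.52 CPM in WT. Hhip, a membrane-anchored antagonist that binds Hedgehog ligands, stood at 33.0 against 6.66 CPM in Tg and 21.4 against 5.2 CPM in WT. The cells were clustered on these and other genes, so these ratios describe the cluster and test nothing.

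The markers were not equally particular to the cluster when each other cluster was taken alone. Nkx6-2 was highest in cluster 5 (597 CPM in Tg and 730 CPM in WT). It was next in cluster 4 (144 and 203 CPM), cluster 10 (129 and 154 CPM) and cluster 3 (91.4 and 159 CPM), whose ranges over the libraries overlapped. Cluster 1 had 57.5 and 72.2 CPM, and cluster 22 had 32.0 and 50.3 CPM from 3 and 7 UMIs. Rhcg was almost as high in cluster 10, at 38.9 CPM in Tg and 37.5 CPM in WT, as in cluster 5, and near 0 in clusters 1 and 3. Hhip in cluster 10 was at 18.6 CPM in Tg and 13.0 CPM in WT. Fbln5 reached 17.6 CPM in Tg and 32.2 CPM in WT in cluster 4, its highest mean outside cluster 5, from 7 and 20 UMIs.

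**Figure D1:**
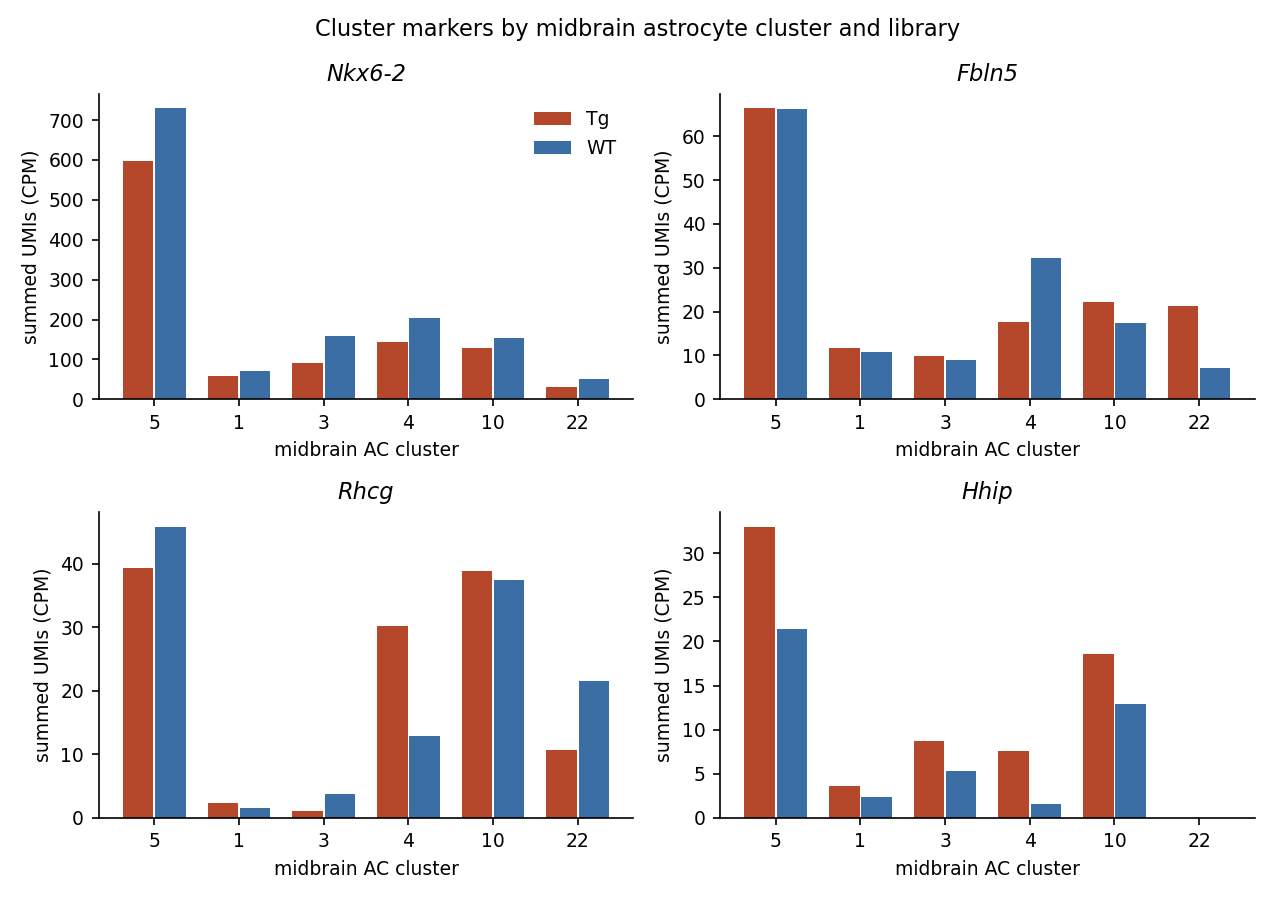
CPM of Nkx6-2, Fbln5, Rhcg and Hhip in each midbrain AC cluster (x axis) in the Tg and the WT library (1 bar each). Nkx6-2 and Fbln5 stand apart in cluster 5 in both libraries, while Rhcg is about as high in cluster 10.

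Cluster 5 held 68.4% of all Nkx6-2 UMIs of the AC cells in Tg and 65.3% in WT. Because oligodendrocytes also use this gene, its level in the cells of every other midbrain label was read. In Tg the highest was 10.5 CPM, from 1 UMI in 13 cells labelled imNeur, and in WT it was 19.7 CPM, from 9 UMIs in 54 cells labelled OLG, while the 12 Tg cells labelled OLG had 0 UMIs. The oligodendrocyte gene Cnp was at 17.3 CPM in Tg and 17.5 CPM in WT in the cells labelled OLG, below its level in cluster 5, so their label goes against this marker and they say nothing of Nkx6-2 in oligodendrocytes. Fbln5 was less particular to astrocytes, since cells labelled OPC held 107 CPM in Tg and 163 CPM in WT. Cluster 5 had 26.8% of the Tg library's Fbln5 UMIs and 26.5% of those of the WT library. Hhip was also high in cells labelled OLG, at 77.7 CPM in Tg and 178 CPM in WT.

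Cell by cell, Nkx6-2 was the marker seen in most members. At least 1 UMI was found in 86.2% of Tg cells (81.4% to 90.1%) and 87.3% of WT cells (84.1% to 90.1%), against 21.2% and 25.6% of the other AC cells. Microglia, which should lack the gene, had it in 1.49% of Tg cells and 2.76% of WT cells at median depths of 8318 and 6749 UMIs. After each cell was thinned to 3000 UMIs (1 Tg and 6 WT cells of the cluster were shallower and left out), the shares were 69.6% and 75.1% in cluster 5, 14.0% and 19.0% in the other AC cells, and 0.593% and 1.65% in microglia.

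Fbln5 was detected in 29.1% of Tg and 28.7% of WT cells of the cluster, Rhcg in 19.2% and 18.7%, and Hhip in 19.9% and 13.3%. Thinned to 3000 UMIs, these shares were 14.2% and 13.6% for Fbln5, 8.46% and 10.7% for Rhcg, and 7.31% and 6.31% for Hhip. In microglia the unthinned shares of Fbln5 were 0.744% and 0.950%, those of Hhip 0.744% and 0.691%, and that of Rhcg in WT was 0.259%, while in Tg Rhcg was found in 0 of 806 microglia. None of the 4 markers was found in 23 of 261 Tg cells and 43 of 513 WT cells, and all 4 together in 4 and 3 cells. The other members had 1 to 3 of them. The median cell had 4.69 Nkx6-2 UMIs per 10000 in Tg and 6.25 in WT.

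Beyond the markers, a small set of genes was at least 2-fold higher in cluster 5 than in the other AC cells of both libraries at 20 CPM or more. These 29 identity genes were 0.443% of 6550 genes tested. Clic6, of the chloride intracellular channel family, stood at 36.6 against 6.995 CPM in Tg and 50.7 against 8.72 CPM in WT. Nnat, encoding the imprinted membrane proteolipid neuronatin, stood at 1298 against 349 CPM in Tg and 1754 against 495 CPM in WT. In the shallow cluster 4 alone Nnat was at 1227 CPM in Tg and 1369 CPM in WT. Itih3, a heavy chain that binds hyaluronan in the extracellular matrix, stood at 1829 against 548 CPM in Tg and 1805 against 536 CPM in WT. The libraries placed Itih3 at nearly the same ratio, with log2 values of 1.74 and 1.75. Ttll3, a tubulin glycylase, stood at 218 against 59.5 CPM in Tg and 286 against 93.9 CPM in WT.

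Several other identity genes act in ion handling, lipid carriage and metabolism. Dpp6, an auxiliary subunit of voltage-gated potassium channels, had log2 ratios of 1.57 in Tg and 1.68 in WT. Atp2b4, a plasma membrane calcium pump, had 1.498 and 1.52. Apoc1, a lipoprotein component, had 1.79 and 1.56, and Ucp2, of the mitochondrial uncoupling protein family, had 1.53 and 1.40. The flavin-containing monooxygenase Fmo1 had 1.45 and 1.21. All of these were detected in both libraries at 54.9 CPM or more in the cluster. Single other clusters came closer than the pool. Cluster 4 had Ucp2 at 98.3 CPM in Tg and 78.9 CPM in WT, against 111 and 95.8 CPM in cluster 5. It had Apoc1 at 70.6 and 114 CPM against 125 and 132 CPM, and Atp2b4 at 42.8 and 53.2 CPM against 54.9 and 63.5 CPM. Cluster 10 had Fmo1 at 42.4 and 48.2 CPM against 56.5 and 66.8 CPM.

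A second group encodes transcription factors, adhesion proteins and cytoskeletal regulators. Heyl, a Notch target of the Hes family, had log2 ratios of 1.35 in Tg and 1.70 in WT. Six3, a homeobox factor of the developing forebrain and eye, had 1.30 and 1.59, but its mean level in cluster 10 (78.4 CPM) was above that in cluster 5 (71.2 CPM). Arhgef10, a guanine nucleotide exchange factor, had 1.65 and 1.33. Igsf1, an immunoglobulin superfamily membrane protein, had 1.22 and 1.48, the cadherin Cdh22 had 1.22 and 1.42, and Gpc1, a glypican that carries heparan sulphate, had 1.197 and 1.38. Basp1, a membrane-bound growth cone protein, had 1.48 and 1.29, with 107 CPM on average in cluster 4 against 63.8 CPM in cluster 5. The set ended close to the threshold: Nectin1, just inside, had 1.31 and 1.01, and Parvb, just outside, had 1.25 and 0.998.

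**Figure D2:**
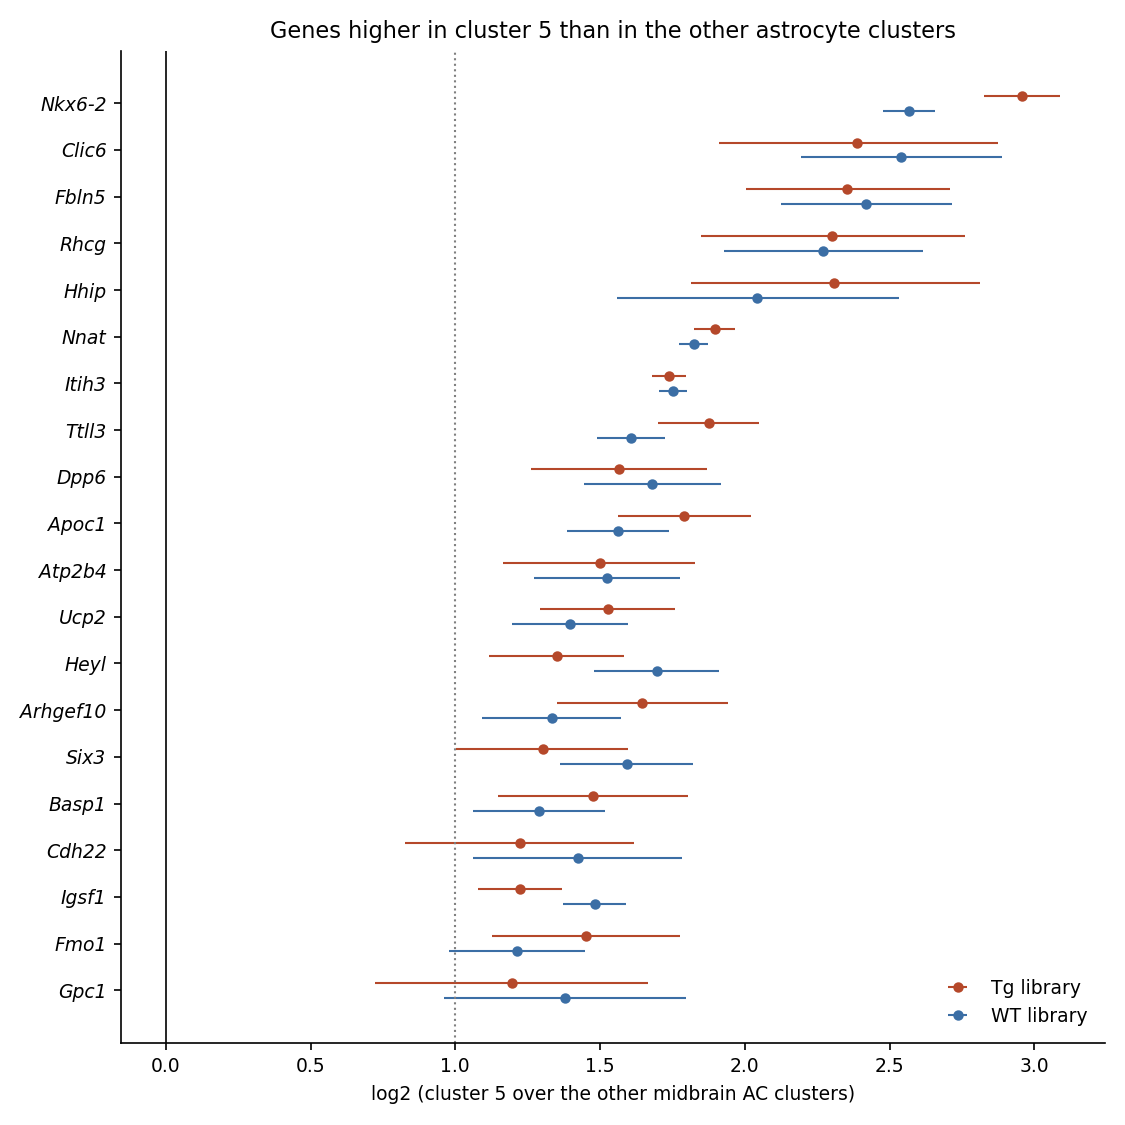
Log2 ratio of cluster 5 over the other midbrain AC cells (x axis) for the 20 identity genes with the largest ratios (rows), in the Tg and the WT library, with exact 95% counting intervals. Nkx6-2 leads at 2.96 and 2.57, and the libraries give similar ratios for most genes.

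Set against the highest single other cluster of each library instead of the pool, 6 of the 29 genes kept a 2-fold excess: Nkx6-2 (log2 ratios 2.06 in Tg and 1.85 in WT), Ttll3 (1.59 and 1.25), Fbln5 (1.59 and 1.04), Itih3 (1.39 and 1.33), Arhgef10 (1.13 and 1.10) and the unnamed C530008M17Rik (1.13 and 1.11). With the other clusters weighted alike, so that the shallow clusters 4 and 22 counted as much as the large ones, 49 genes passed and 20 of the 29 were among them.

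Clic6 is also a choroid plexus gene, and the cells labelled CPC held it at 420 CPM in Tg and 398 CPM in WT. Their Ttr stood at 287324 CPM in Tg and 277569 CPM in WT. Within the AC cells, Ttr was at 1751 CPM in cluster 5 against 1965 CPM in the other clusters of the Tg library, and at 3828 against 3368 CPM in the WT library. The log2 ratios of Clic6 over the same cells were 2.39 in Tg and 2.54 in WT. What part choroid plexus RNA had in the Clic6 level was not tested. Cnp, the enzyme gene named above, was at 226 against 106 CPM in Tg and 218 against 110 CPM in WT and also ran higher in the cluster.

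Genes whose levels followed those of Nkx6-2 were sought over 12 points (6 AC clusters in 2 libraries, which share their depth and their free RNA). The highest Pearson correlations of log2(CPM + 1) were those of Atp2b4 (0.92), Parvb (0.91), Gucy1a1 (0.91), Dgcr2 (0.86) and Fuz (0.85), given as a description only. Of these, Atp2b4 was an identity gene. Parvb, an adaptor of focal adhesions, stood at 78.0 against 32.9 CPM in Tg and 76.9 against 38.5 CPM in WT. Gucy1a1, a subunit of the nitric oxide receptor guanylate cyclase, stood at 52.9 against 32.2 CPM in Tg and 51.9 against 34.0 CPM in WT.

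Other genes were lower in cluster 5 than in the pool of the other AC cells. At 20 CPM or more in the other AC cells, 29 of 6554 genes (0.442%) were at least 2-fold lower in the cluster in both libraries. One block of these genes belonged to clusters 10 and 22, and Crym, Lhx2 and Hopx of it were no higher in clusters 1 and 3 than in cluster 5. Crym, which encodes the thyroid hormone-binding crystallin mu, had 1.59 against 38.4 CPM in Tg and 0.756 against 48.4 CPM in WT, and on average 239.5 CPM in cluster 10 and 602 CPM in cluster 22. Lhx2, a LIM homeobox factor of the forebrain, had 3.18 against 25.9 CPM in Tg and 4.54 against 44.6 CPM in WT. Hopx, an atypical homeodomain gene, had 5.97 against 46.7 CPM in Tg and 7.81 against 92.1 CPM in WT.

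The other block was high in clusters 1 and 3, and Igfbp2, Aldh1a1 and Fzd10 of it in the shallow cluster 4 as well. Pax3, a paired homeobox factor of the dorsal neural tube, had 4.38 against 31.0 CPM in Tg and 2.77 against 26.9 CPM in WT, with means of 34.1 CPM in cluster 1 and 39.7 CPM in cluster 3. Igfbp2, an insulin-like growth factor binding protein, had 29.0 against 385 CPM in Tg and 25.2 against 261 CPM in WT. Aldh1a1, which makes retinoic acid, had 84.3 against 232 CPM in Tg and 62.3 against 192 CPM in WT. The Wnt receptor Fzd10 had log2 ratios of -1.196 and -1.32. Dio2, the deiodinase that activates thyroid hormone in astrocytes, was low against clusters of both blocks, at 15.5 against 93.7 CPM in Tg and 13.1 against 101 CPM in WT.

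Lists of regional factors placed these single genes in context. A list member was counted when it had at least 20 UMIs over the AC cells of each library and was 1.5-fold higher or lower in the cluster in both. The markers Nkx6-2, Fbln5, Rhcg and Hhip name the cluster, so their entries as higher in these and later lists were fixed in advance. Over all 12415 genes so measured, 2.3% were higher and 3.17% lower, with a median log2 ratio of 0.03. Of 10 measured dorsal neural tube factors, 0 were higher and 8 lower (Pax3, Zic1 to Zic5, Meis2 and Bmp6), with a median of -1.53. The zinc finger gene Zic1 had 21.5 against 55.5 CPM in Tg and 27.7 against 53.6 CPM in WT. Zic1 was highest in cluster 10, at 111 CPM in Tg and 82.6 CPM in WT. Low Pax3 was shared with cluster 10, at 1.77 CPM in Tg and 1.34 CPM in WT. Of 8 measured telencephalic factors, 0 were higher and 5 lower (Crym, Hopx, Lhx2, Emx2 and Fezf2), with a median of -2.38. Low levels of Crym, Hopx and Lhx2 were shared with clusters 1 and 3. Lhx2 averaged 0.739 CPM in cluster 1 and 0.349 CPM in cluster 3 against 3.86 CPM in cluster 5. Hopx averaged 2.92 and 1.67 CPM against 6.89 CPM. Fezf2 had 0 UMIs in the cluster in both libraries.

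Of 8 midbrain and hindbrain factors, 0 were higher and 4 lower, namely Otx1, Otx2, En2 and Barhl2, and the median was -0.76. Otx2, a homeobox gene of the forebrain and midbrain, had 23.1 against 57.96 CPM in Tg and 27.2 against 51.4 CPM in WT. Low Otx2 was shared with cluster 10, at 24.8 CPM in Tg and 24.1 CPM in WT. Cluster 1 had 63.8 and 65.6 CPM, and cluster 3 had 70.2 and 51.3 CPM. Of 10 measured ventral neural tube factors, only the marker Nkx6-2 was higher, and the Iroquois genes Irx2 and Irx3 were lower. The other ventral factors did not pass: Nkx2-2 stood at 39.0 against 27.5 CPM in Tg and 36.5 against 24.9 CPM in WT, and Dbx2 at 171 against 172 CPM in Tg and 181 against 167 CPM in WT. Nkx6-1, the close relative of Nkx6-2, was at 1.59 CPM in Tg and 0.252 CPM in WT and fell short of the UMI minimum.

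Within the Hedgehog pathway, 3 of 16 measured genes were higher in the cluster and 0 lower, and those 3 (Hhip, Ptch1 and Gli1) were textbook targets of the pathway. Hhip is a marker of the cluster and its entry was fixed in advance, which leaves Ptch1 and Gli1. Besides Hhip, the receptor Ptch1 stood at 1270 against 663 CPM in Tg and 1251 against 664 CPM in WT (log2 0.94 and 0.91). The transcription factor Gli1 stood at 121 against 75.5 CPM in Tg and 99.6 against 55.3 CPM in WT (0.68 and 0.85). For Gli1 the closest other cluster was cluster 3, at 90.3 CPM in Tg and 78.8 CPM in WT. The excess of Gli1 was thus smaller against cluster 3 alone than against the pooled other AC cells. The signal transducer Smo had ratios of 0.45 and 0.24, and the factors Gli2 (0.15 and 0.11) and Gli3 (0.11 and 0.02) and the ligand-binding co-receptor Gas1 (-0.29 and -0.33) did not pass. The ligand Shh had 0 UMIs in the cluster and in the other AC cells of both libraries.

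**Figure D3:**
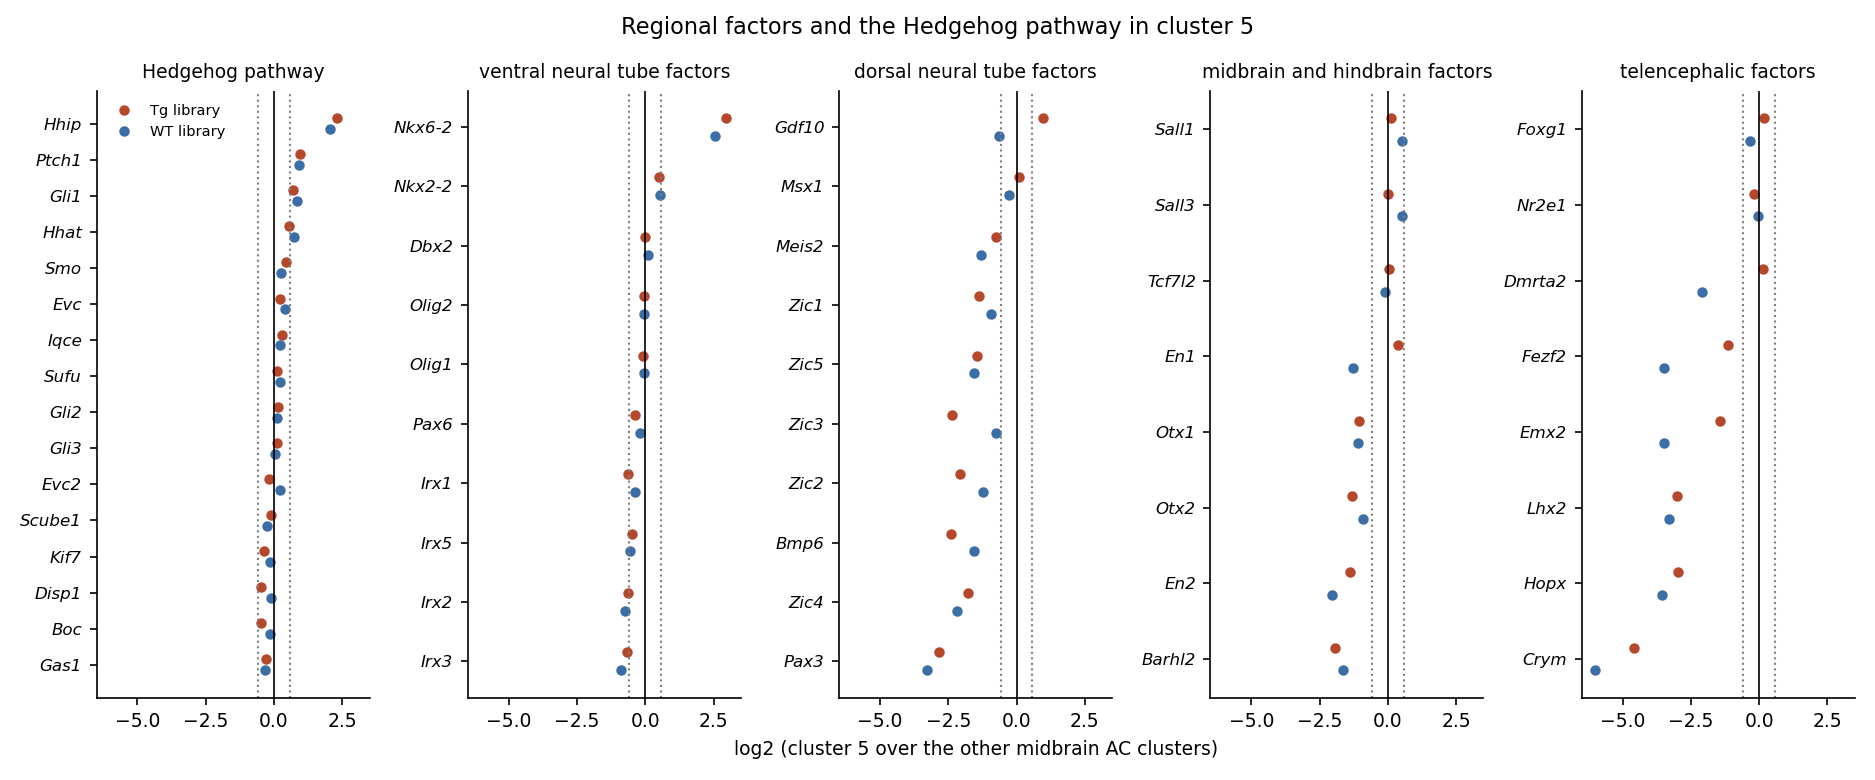
Log2 ratio of cluster 5 over the other midbrain AC cells (x axis) for each measured member of 5 lists (1 panel each), with 1 point for the Tg and 1 for the WT library; dotted lines mark 1.5-fold. The 3 Hedgehog targets and Nkx6-2 lie right of the lines, and 8 of 10 dorsal factors and 5 of 8 telencephalic factors lie left of them in both libraries.

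Among signalling genes of the FGF, BMP, Notch and Wnt lists, 4 of 32 were higher and 3 lower. The Notch effector Hes5 stood at 983 against 542 CPM in Tg and 1010 against 491 CPM in WT. Cluster 10 came closest to cluster 5 for Hes5, at 734 CPM in Tg and 872 CPM in WT. Its relative Hey2 stood at 43.4 against 21.8 CPM in Tg and 36.3 against 22.8 CPM in WT, and the receptor Notch3 at 46.5 against 29.4 CPM in Tg and 55.4 against 32.2 CPM in WT. The Wnt receptor Fzd1 was the fourth higher gene, while Fzd10, Lef1 and Sfrp1 of the same pathway were lower.

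General astrocyte genes were close to those of the other clusters, with 1 of 19 higher and 0 lower. That gene was Slc1a3, the glutamate and aspartate transporter, at 3460 against 1689 CPM in Tg and 3391 against 1879 CPM in WT. It was higher still in cluster 10, at 4048 CPM in Tg and 4054 CPM in WT. The water channel Aqp4 stood at 1076 against 1232 CPM in Tg and 1004 against 1235 CPM in WT, and Aldh1l1 had log2 ratios of -0.15 and -0.01. Of 15 measured white matter and pial astrocyte genes, 1 was higher and 5 lower (Myoc, Cd44, Fxyd6, Vim and Thbs4).

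Some genes known from Bergmann glia, the radial astrocytes of the cerebellum, were higher in the cluster: 4 of 12, with 1 lower. Gria1, an AMPA receptor subunit, stood at 448 against 231 CPM in Tg and 491 against 242 CPM in WT, and Itih3, Slc1a3 and Vit were the other higher genes. Gria4, a further AMPA subunit, went the other way, at 4.38 against 18.7 CPM in Tg and 4.03 against 18.0 CPM in WT. Among 18 glutamate and GABA receptor genes, Gria1 and the GABA-B subunit Gabbr2 (0.76 and 0.78) were higher. The endothelin receptor Ednrb (0.67 and 0.70) was the 1 higher of 13 amine, purine and peptide receptors, with P2ry1 and Adra1b lower.

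Among matrix genes, 4 of 22 elastic fibre and basement membrane genes were higher (the marker Fbln5, Mfap2, Emilin1 and Col4a5) and 2 lower (Fbln2 and Efemp1). Mfap2, a microfibril protein, stood at 7.56 against 3.997 CPM in Tg and 9.07 against 3.44 CPM in WT. Of 15 perineuronal and matricellular genes, 2 were higher and 5 lower. The higher ones were Sparc, at 2595 against 1277 CPM in Tg and 2560 against 1066 CPM in WT, and its relative Sparcl1 (0.66 and 0.61), both secreted by astrocytes as regulators of synapses. The mean level of Sparc in the shallow cluster 4 (2890 CPM) was above that in cluster 5 (2577 CPM). The lower ones were Tnr, Tnc, Chrdl1, Hapln1 and Vcan. Among 19 genes of ammonium, acid-base and water transport only the marker Rhcg was higher, and the carbonic anhydrase Car14 and the sodium pump subunit Atp1b1 were lower. Of 27 guidance and adhesion genes 1 was higher, the repellent ligand Slit2 (1.09 and 1.66), and 5 were lower (Epha4, Epha5, Ephb1, Efnb2 and Cdh4).

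Frontal cortex cluster 22 was the cluster of the other region that Nkx6-2 also marked, with 53 Tg and 47 WT cells, which were pooled for this comparison; it was chosen with its Nkx6-2 level known. At 20 CPM, 22 of the 29 identity genes of midbrain cluster 5 were also 2-fold higher in it than in the other frontal cortex AC clusters. That is 75.9% of the 29 and 6.53% of the 337 genes that passed there, where 4.89% of 6885 genes passed. The ratio was above 0 for 28 of the 29, with a median of 2.37 against 0.09 over all genes. Whether both regions came from the same mice is not given in the sources used here.

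In that cluster Nkx6-2 stood at 449 against 7.48 CPM (log2 5.91, 5.59 to 6.23). Igsf1 stood at 125 against 1.90 CPM, Dpp6 at 52.1 against 1.36 CPM and Itih3 at 963 against 120 CPM. The Hedgehog genes Ptch1 (1104 against 241 CPM) and Gli1 (108 against 19.4 CPM) and the AMPA subunit Gria1 (400 against 24.5 CPM) were higher there too. Basp1 was the 1 identity gene with a ratio below 0 there, at 20.8 against 23.2 CPM, and Slc1a3 stood at 3146 against 3606 CPM. Of the 29 genes low in midbrain cluster 5, 28 were in the frontal cortex table and 5 of them had a ratio above 0 (Lmo1, Nfasc, Acvr1c, Fam19a1 and A330076C08Rik), with a median of -0.98. Crym had 0 UMIs in cluster 22 against 160 CPM, and Lhx2 stood at 48.2 against 291 CPM.

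**Figure D4:**
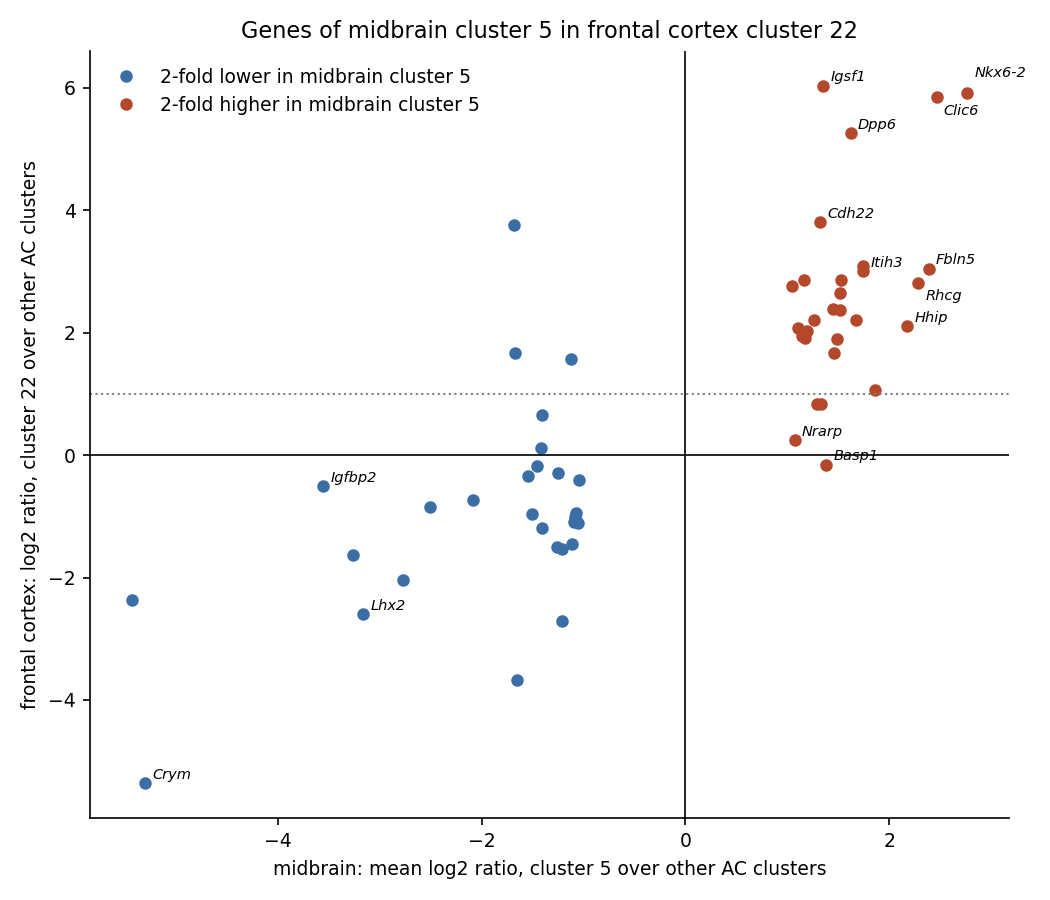
Log2 ratio in frontal cortex cluster 22 over the other frontal cortex AC clusters (y axis) against the mean log2 ratio in midbrain cluster 5 over the other midbrain AC clusters (x axis), 1 point per gene high or low in midbrain cluster 5. Of the 29 high genes 28 lie above 0 on the y axis, with Igsf1, Nkx6-2 and Clic6 highest, and 5 of 28 low genes do.

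Within cluster 5 the genotypes were close. A gene was counted at a 1.5-fold difference and 20 CPM in at least 1 library, and 149 of 7212 genes (2.07%) were higher in Tg and 96 (1.33%) lower. Cells of the Tg library were deeper, erythroid genes were higher in Tg (4 of 4 measured, median log2 ratio 2.49) and choroid plexus markers lower (6 of 8). Their part in the differences below was not tested. Each value sums over the cells of a library, so a difference in a few cells and one in all cells cannot be told apart from the ratio alone.

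The genes that mark the cluster differed modestly between genotypes. Nkx6-2 was at 597 CPM in Tg and 730 CPM in WT, a log2 ratio of -0.29 (-0.38 to -0.20). It was also lower in Tg in clusters 1 (-0.33), 3 (-0.80), 4 (-0.50) and 10 (-0.26), where the last interval, -0.54 to 0.03, included 0. Fbln5 had a ratio of 0.00 (-0.29 to 0.29), Rhcg -0.22 (-0.59 to 0.14) and Itih3 0.02 (-0.04 to 0.07). Nnat (-0.43), Ttll3 (-0.39), Igsf1 (-0.32), Basp1 (-0.39) and Six3 (-0.29) were lower in Tg with intervals below 0. Clic6 was at 36.6 CPM in Tg and 50.7 CPM in WT (-0.47, -0.84 to -0.11), beside Ttr with -1.13 (-1.18 to -1.08).

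No Hedgehog gene passed the list rule in thinned cells. Hhip was at 33.0 CPM in Tg and 21.4 CPM in WT (0.62, 0.17 to 1.08). Its ratio was 0.61 with the mean of per-cell CPM and 0.59 without the highest cell of each library. Among cells with at least 500 genes and a mitochondrial share under 10% it was 0.73. It was 0.08 when cells were thinned to 3000 UMIs, which left Hhip in 19 Tg and 32 WT cells. Gli1 had 0.29 (0.06 to 0.50), Smo 0.32 (0.11 to 0.53) and Ptch1 0.02 (-0.04 to 0.09). For lists, a member with at least 20 UMIs in all was counted at a 1.2-fold difference with an interval on 1 side of 0, a rule that 6.36% of 11401 genes met as higher and 5.09% as lower in Tg. By it 3 of 16 Hedgehog genes were higher and 1 lower, and 0 of 12 either way in thinned cells. The transgene itself was not analysed here. Prnp, the prion protein gene, was at 1752 CPM in Tg and 1560 CPM in WT (0.17, 0.11 to 0.22).

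Among the genes eligible to be named (at least 60 UMIs, without predicted and haemoglobin genes and markers of other cell types), Etv4 had the largest ratio of Tg over WT. It encodes an ETS transcription factor induced by FGF signalling and was at 63.2 CPM in Tg and 24.7 CPM in WT (1.36, 0.98 to 1.73). It was found in 37.5% of Tg cells and 15.98% of WT cells of the cluster, and in 0.993% and 1.04% of microglia. Thinned to 3000 UMIs, the shares were 18.5% in Tg and 7.69% in WT. The excess was not confined to the cluster, with 0.84 (0.63 to 1.05) in cluster 1, 0.72 (0.43 to 1.0) in cluster 3 and 0.47 (0.06 to 0.88) in cluster 10. Its relative Etv5 was at 70.0 CPM in Tg and 43.6 CPM in WT (0.68, 0.37 to 0.99). Among 31 genes of the FGF, BMP, Notch and Wnt lists, Etv4, Etv5 and Notch2 were higher in Tg, and the BMP targets Id1 (-0.87) and Id4 (-0.62) were lower.

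The cell cycle inhibitor Cdkn1a was at 40.6 CPM in Tg and 20.7 CPM in WT (0.97, 0.54 to 1.41) and was higher in Tg in clusters 1 (1.10), 3 (0.63) and 10 (1.95) as well. Mitd1, which acts in cytokinesis, was at 41.4 CPM in Tg and 21.9 CPM in WT (0.92), with 0.86 in cluster 1 and 0.95 in cluster 3. The zinc finger gene Zfp641 was at 46.5 CPM in Tg and 24.4 CPM in WT (0.93), with 0.62 in cluster 1 and 0.53 in cluster 3. All of them were thus higher in Tg in clusters 1 and 3 too.

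For Ogfod1 and Masp1 the intervals in clusters 1 and 3 included 0, and the difference between clusters was not tested. Ogfod1, a prolyl hydroxylase of a ribosomal protein, had 25.5 CPM in Tg and 11.3 CPM in WT (1.17), against -0.36 in cluster 1 and 0.13 in cluster 3. Masp1, a protease of the complement lectin pathway, had 26.3 CPM in Tg and 12.1 CPM in WT (1.12), against 0.15 and 0.14. The remaining named genes higher in Tg, Gpkow, Gfer, Ddit4l, Phtf1, Zfp81 and Zfp229, had ratios of 0.89 to 0.95, each from 54 to 75 UMIs in Tg and 45 to 64 UMIs in WT. Gpkow had 0.87 (0.23 to 1.5) in cluster 3. In thinned cells Ogfod1 had 0.66 and Phtf1 0.45.

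Among genes lower in Tg, Egr1, an activity-induced transcription factor, was at 25.5 CPM in Tg and 61.0 CPM in WT (-1.26, -1.68 to -0.86). It was lower in Tg in clusters 1 (-1.81), 3 (-1.58), 4 (-0.97) and 10 (-0.79) too. Of 17 immediate early genes measured, 8 were lower in Tg and 0 higher (Egr1, Dusp1, Nr4a1, Zfp36, Ier2, Btg2, Fos and Junb), with a median of -0.40 against 0.01 over all genes. After thinning, 5 of 16 were lower. Dusp1, a phosphatase that turns off MAP kinases, was at 20.3 CPM in Tg and 40.6 CPM in WT (-1.0, -1.48 to -0.54). Fos was at 87.1 CPM in Tg and 127 CPM in WT (-0.54, -0.77 to -0.31). The same list had 9 of 17 lower and 1 higher in cluster 1, and 8 of 18 lower and 2 higher in cluster 3. It had 5 of 17 lower and 1 higher in cluster 4, and 6 of 17 lower and 2 higher in cluster 10. By the same rule over all genes, 658 of 12223 were lower and 955 higher in cluster 1. In cluster 3 these were 718 lower and 782 higher of 11359 genes. Cluster 4 had 352 lower and 272 higher of 6209, and cluster 10 had 608 lower and 925 higher of 10173.

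Of 18 clock genes measured, 7 were lower in Tg and 1 higher, with a median of -0.08, and 6 were lower in thinned cells. Dbp, a PAR leucine zipper factor under direct clock control, was at 108 CPM in Tg and 147 CPM in WT (-0.45, -0.66 to -0.24). Per3 was at 177 CPM in Tg and 241 CPM in WT (-0.44), Ciart at 7.56 and 15.9 CPM (-1.07), and Per1, Bhlhe40, Tef and Hlf were lower as well. Rorb, an activator in the clock loop, was at 403 CPM in Tg and 325 CPM in WT (0.31). The list had 5 of 18 lower and 3 higher in cluster 1, and 4 of 18 lower and 3 higher in cluster 3. It had 1 of 15 lower and 1 higher in cluster 4, and 8 of 18 lower and 3 higher in cluster 10. The counts over all genes of these clusters are those given with the immediate early genes. The glucocorticoid-induced Tsc22d3 was at 182 CPM in Tg and 259 CPM in WT (-0.51).

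Other genes lower in Tg act in metabolism and transport. Cyp27a1, which makes 27-hydroxycholesterol, was at 9.94 CPM in Tg and 23.4 CPM in WT (-1.24, -1.94 to -0.59), with -0.30 (-0.66 to 0.06) in cluster 1, -0.10 (-0.62 to 0.40) in cluster 3 and, from 1 and 15 UMIs in Tg and WT, -2.92 (-8.32 to -0.22) in cluster 10. Rasgrf1, a calcium-responsive Ras activator, was at 13.1 CPM in Tg and 30.7 CPM in WT (-1.23). Txnip, an inhibitor of thioredoxin, was at 24.7 CPM in Tg and 45.9 CPM in WT (-0.90). Car14 (-0.95), Atp1b1 (-0.94), the AP-3 adaptor subunit Ap3m2 (-1.003) and the Golgi tethering subunit Cog3 (-0.91) were lower too. The mitochondrial calcium regulator Micu2 was at 10.7 CPM in Tg and 22.9 CPM in WT (-1.09), but had -0.34 in thinned cells. Thinned values were also smaller in size for Atp1b1 (-0.34), Car14 (-0.57) and Rasgrf1 (-0.78).

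The count of interferon genes lower in Tg rested on 1 WT cell. Of 24 measured members 8 were lower in Tg and 0 higher, and without that cell 0 of 19 were lower and 1 higher. It held 359 UMIs of the 30-gene list among 18071 UMIs, with 27 Nkx6-2 UMIs. The highest Tg cell had 38 such UMIs and the next highest WT cell 37, around medians of 5 and 4. The chemokine Cxcl10 had 2 UMIs in Tg and 187 in WT, of which 181 lay in that cell, and its ratio with the cell was -5.89 (-8.945 to -4.015). The interferon-induced GTPase gene Gbp7 had -0.93 with it and -0.48 without it. The list of A1 reactive astrocyte genes had 4 of 9 lower in Tg and 0 of 7 without the cell.

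**Figure D5:**
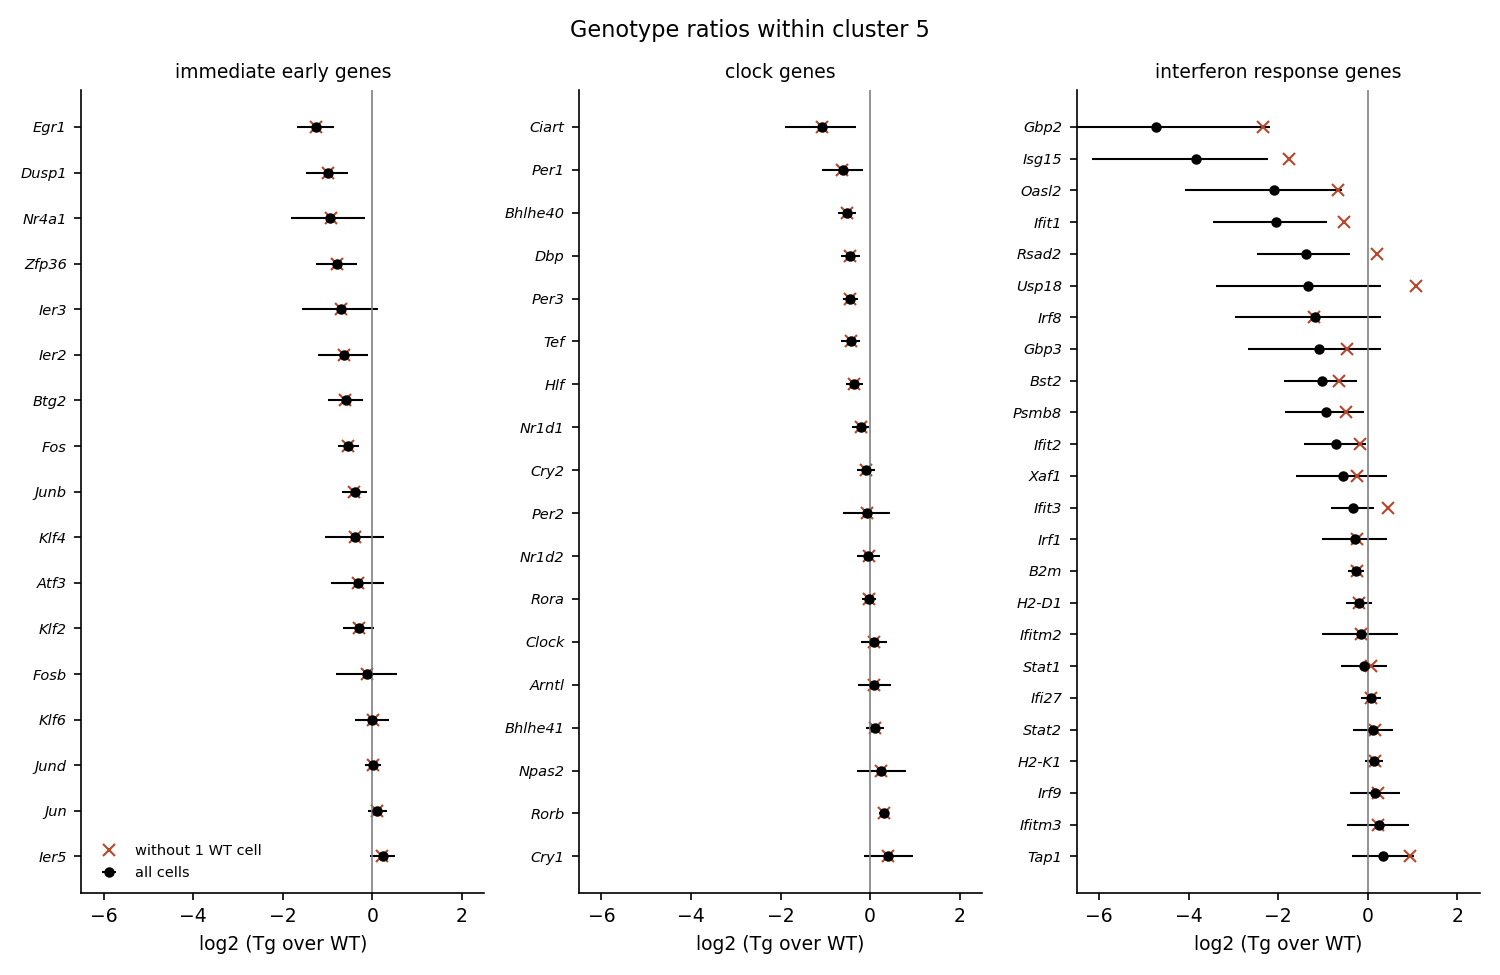
Log2 ratio of Tg over WT in cluster 5 (x axis) for the measured members of the immediate early, clock and interferon lists (1 panel each), with all cells and without the WT cell with the most interferon UMIs, with exact 95% counting intervals (cut at the axis end where they run past it). The immediate early and clock genes keep their places without that cell, 8 of 17 and 7 of 18 of them being lower in Tg, and the interferon genes farthest to the left lie nearer 0 without it.

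Genes tied to astrocyte reactivity showed little else. Gfap, which encodes an astrocytic intermediate filament protein, was at 99.8 CPM in Tg and 118 CPM in WT (-0.24, -0.46 to -0.01), with 0.13 after thinning and 0.19 among cells with a low mitochondrial share. Of 19 disease-associated astrocyte genes 2 were lower in Tg, the complement gene C4b (-0.40) and the metallothionein Mt2 (-0.30). None of 19 unfolded protein response genes passed in either direction, nor did any of 3 measured A2 genes. Of 25 lysosome genes 3 were lower (Scarb2, Hexa and Gaa), and of 16 Parkinson disease genes 4 were lower (Pink1, Scarb2, Pla2g6 and Eif4g1), 0 after thinning.

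Transport genes of the astrocyte differed in both directions. Of 16 glutamate, GABA and glycine transport genes, the glutamine transporter Slc38a3 was at 195 CPM in Tg and 133 CPM in WT (0.56, 0.38 to 0.74) and the glycine transporter Slc6a9 at 423 CPM in Tg and 321 CPM in WT (0.40, 0.28 to 0.52). Slc6a6 (-0.84), Slc38a1 (-0.45) and the cystine transporter Slc7a11 (-0.38) were lower in Tg. Kcnj10, the inward rectifier that clears potassium, was at 673 CPM in Tg and 532 CPM in WT (0.34, 0.25 to 0.43). The glial transcription factor Sox9 was at 932 CPM in Tg and 688 CPM in WT (0.44, 0.36 to 0.52). Slc1a3, at 3460 CPM in Tg and 3391 CPM in WT (0.03), did not differ beyond counting error.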

How the data were processed

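Cells were assigned by the authors' deposited table (cell type AC, cluster 5, genotype), and the members and gene lists were chosen with earlier results of these data known. The deposited matrices hold whole-number UMI counts per gene and cell with no scaling, and the authors' cell tables list mitochondrial UMIs per cell as a percent. Per the submitters' processing notes, the tools were Seurat 3.1.5 and Cell Ranger 3.0.0, and the build was mm10. Which cells were filtered out and how doublets were treated is not given in the sources used here, and no doublet caller was run. Instead, 3 Tg and 12 WT cells with over 1% of their UMIs in markers of another type were left out as an alternative.

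Counts were summed per cluster and library with Python 3.11.15 (numpy 2.4.6, pandas 2.3.3, scipy 1.17.1) and scaled to CPM. Log2 ratios have exact 95% intervals (Clopper-Pearson on the share of a gene's UMIs in 1 group). A floor of 3 UMIs per group replaced a 0, and no ratio was given where both counts were at or under it. Identity genes were named as the markers plus the 20 with the largest smaller-of-libraries ratio. Genotype genes were named as the 12 largest and 12 smallest ratios with at least 60 UMIs, an interval on 1 side of 0 and a direction that held with TMM factors, per-cell CPM and without the highest cell. Predicted, mitochondrial, ribosomal, haemoglobin, X-inactivation and Y-linked genes were left out, as were markers of other types, and up to 6 called members per list were added. Scaling alternatives used edgeR 4.0.16 and DESeq2 1.42.0 size factors only (R 4.3.3). The calculation was tested on simulated data. Some items, among them 1 gene of the Hedgehog list, are not reported here and were left out of the counts. Alternatives varied the cells, depth, scaling, filter and comparison clusters; leaving out the WT cell with the most interferon UMIs, and all alternatives for gene lists, were chosen after seeing the data.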

Additional observations from a re-analysis of the deposited data

How the results depend on the processing

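The main limit is that each genotype is 1 library, so library and genotype cannot be told apart, and intervals cover counting error only. No paired analysis was possible because each group is 1 library and no test was run. The count of identity genes was 29; it was 49 with the other clusters weighted alike, 6 against the highest other cluster and 121 with no filter on low genes. Without cluster 4, with filtered or thinned cells, with per-cell CPM, and with TMM or DESeq2 factors it was 25 to 35. Genes higher in Tg numbered 149 but 449 in cells thinned to 3000 UMIs (91 of the 149 among them) and 1220 with no filter. Genes lower in Tg numbered 96 but 410 in thinned cells (61 shared) and 1294 with no filter; thinning leaves fewer UMIs per gene, and without the filter more genes are counted. In the other 7 alternatives there were 121 to 169 higher and 99 to 139 lower. Genes shared with frontal cortex cluster 22 numbered 22 of the 29 identity genes (75.9%), and 7 of 8 (87.5%) at a 3-fold threshold. The share of astrocytes in the cluster was 20.6% in Tg and 21.7% in WT among filtered cells (at least 500 genes, mitochondrial share under 10%), and 20.4% in Tg and 22.1% in WT without cluster 4. TMM and DESeq2 factors shifted all genotype ratios by -0.0045 and -0.0053 (log2). Of 46 named genes with a genotype ratio, 6 moved outside their 95% interval in thinned cells, 2 in filtered cells, and 1 each without the interferon-rich WT cell and without the highest cell, and none of those past 1.5-fold changed sign.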

Other observations

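The interferon list, whose count in cluster 5 rested on 1 WT cell, went in different directions in the other AC clusters. In cluster 1, 0 of 25 members were higher and 6 lower in Tg. In cluster 3, 9 of 21 were higher and 0 lower, and in cluster 10, 3 of 16 were higher and 2 lower. The counts over all genes are those given with the immediate early genes. Of 13 microglial markers, 7 were higher and 0 lower in Tg in cluster 3. What part single cells or microglial RNA had in these counts was not tested. Gfap, at a log2 ratio of -0.24 in cluster 5, had 2.53 (2.37 to 2.70) in cluster 10, with 1041 CPM in Tg and 180 CPM in WT. Itih3, which did not differ between genotypes in cluster 5, was at 437 CPM in Tg and 250 CPM in WT in cluster 10 (0.80, 0.63 to 0.98).

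In 1 WT cell of cluster 5, Ttr made up 1955 of every 10000 UMIs, against a WT median of 27.4 and a highest Tg cell of 127. Without the highest cell of each library the Ttr ratio of Tg over WT was -0.85, against -1.13 with them.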
